A study of Homo sapiens with 3 samples.

Results

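The annexins are a family of proteins that bind acidic phospholipids when calcium rises, through a core of repeated domains, with N-terminal tails that differ from member to member. They act in membrane repair, vesicle traffic and the control of inflammation, and several pair with small calcium-binding S100 proteins. The genes described here are the 10 annexins ANXA1, ANXA2, ANXA3, ANXA4, ANXA5, ANXA6, ANXA7, ANXA9, ANXA11 and ANXA13, out of 22395 genes with a probe set that names a single gene. They were chosen by name, as probe sets whose only gene symbol in the platform annotation is one of these, with the highest-mean probe set kept per gene, and each of the 10 had 1 such probe set. The family was picked with the ANXA1 values of these arrays known, so the differences of its members are given as a description.

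Gene expression was measured on Affymetrix arrays in HEK293T, a widely used cell line made from human embryonic kidney and holding the SV40 large T antigen (the cell line field of the labels spells it HEK239T). Growing cells were infected with lentivirus with the pCDF1 empty vector, with pCDF1-TRAF7 wildtype, or with the G536S mutant of TRAF7 in pCDF1, and all 3 cultures were selected in puromycin. TRAF7 is an E3 ubiquitin ligase, and the G536S change lies in its WD40 repeats. The cells keep their own TRAF7 gene, and the labels do not say whether a culture was a pool or 1 clone.

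Each group has 1 array, so no test between groups was possible, no spread between replicates can be given, and every difference holds the culture, the extraction and the array as well as the construct. Values are log2 intensities made with RMA, a method that subtracts background, scales the arrays to each other and combines the probes of a probe set. A gene was counted as passing the level filter when its mean over the 3 arrays was at least 1.21, the median over genes, and 11198 genes passed. Calls are differences of at least 1.5-fold, or 0.585 on the log2 scale. TRAF7 itself read 5.66 on the empty vector array, 8.11 on the wild-type array and 7.35 on the G536S array, so the mutant array was also lower in TRAF7 than the wild-type array by 0.76, and the part of that gap in the differences between the constructs was not tested. The 75th percentile of all probe sets was 1.73 on the empty vector array against 1.85 and 1.86 on the others. Of the HEK293T markers 5 of 7 passed the filter, while the keratin KRT8 and the neurofilament gene NEFM did not. The keratin KRT18 passed only narrowly, at 1.26 on the empty vector array, 1.20 on the wild-type array and 1.18 on the G536S array. VIM, an intermediate filament gene, was higher by 0.75 with wild type than with the empty vector. The neurofilament gene NEFL stood at -0.64 for G536S minus wild type. Other markers went the other way. For wild type minus empty vector NEFL was at 0.25, but INA, PAX2, NEFM, KRT8 and KRT18 were at -0.33, -0.32, -0.27, -0.14 and -0.07. For G536S minus wild type VIM and KRT18 were at -0.36 and -0.02, but INA, NEFM, PAX2 and KRT8 were at 0.44, 0.11, 0.09 and 0.02. Of 13 measured markers of leukocytes, fibroblasts, endothelium and differentiated kidney 3 passed (CD79A, CD68 and COL1A1). None of the 13 was 1.5-fold apart in any comparison. Over the comparisons 2.17% to 6.07% of all genes passing the filter were 1.5-fold higher and 1.79% to 2.08% lower. With 10 of the 13 below the filter, a count of 0 is near those shares. The summed level of the 13 markers was 15.3 on the empty vector array, 15.3 on the wild-type array and 14.6 on the G536S array. The 10 that did not pass read 0.71 to 1.09, a range whose upper end the filter itself limits. The highest reading among all 13 was 2.60, so these markers do not set an upper bound for background.

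The stretch before the gene start is shown for 3 members, from RefSeq's GRCh38.p14 table, because ANXA1 is the member whose array value stood apart, ANXA2 is the member with a differing pseudogene copy, and ANXA5 is a member that passed the filter and stayed within 1.5-fold. Each line is the 250 bases before the start, on the gene's own strand, with capitals for matches on either strand to TATAAA as the TATA box, to GGGCGG as the GC box, to TGANTCA as the AP-1 site or to TGACGTCA as the cyclic AMP element.
ANXA1: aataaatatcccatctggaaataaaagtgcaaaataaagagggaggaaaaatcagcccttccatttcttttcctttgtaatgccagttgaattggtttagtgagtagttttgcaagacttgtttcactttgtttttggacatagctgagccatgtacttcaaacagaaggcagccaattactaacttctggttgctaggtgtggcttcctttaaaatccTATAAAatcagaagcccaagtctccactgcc
ANXA2: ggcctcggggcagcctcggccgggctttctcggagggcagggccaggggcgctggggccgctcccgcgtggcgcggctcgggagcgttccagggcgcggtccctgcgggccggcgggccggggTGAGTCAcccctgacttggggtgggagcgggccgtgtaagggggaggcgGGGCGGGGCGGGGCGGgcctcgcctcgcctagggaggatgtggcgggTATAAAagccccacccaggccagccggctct
ANXA5: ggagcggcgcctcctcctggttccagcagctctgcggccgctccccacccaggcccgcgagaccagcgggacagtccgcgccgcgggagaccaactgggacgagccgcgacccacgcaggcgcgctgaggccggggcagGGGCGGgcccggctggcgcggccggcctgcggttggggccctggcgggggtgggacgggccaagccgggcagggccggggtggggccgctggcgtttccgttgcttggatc
They lie at chr9:73151615-73151864 on the plus strand, chr15:60397987-60398236 on the minus strand and chr4:121696981-121697230 on the minus strand. The ANXA1 window held 1 match, TATAAA starting 31 bases before the start. The ANXA2 window also held TATAAA at 31 bases, with GC boxes starting 78, 73 and 68 bases before the start that overlap by 1 base, and TGANTCA at 127 bases. The ANXA5 window held 1 GC box at 111 bases.

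The table held 13 windows for 9 of the members, since ANXA4, ANXA6 and ANXA11 have several starts. The ANXA1 window was the poorest in G and C, at 38.4% with 0 CG pairs, whereas the other 12 windows ran from 50.0% to 78.8% with 4 to 36 CG pairs. Over all 35116 windows of the table the median was 58.0% G and C, 10.8% were at or below the ANXA1 value, and 6.06% had 0 CG pairs. TATAAA was in 3 of the 13 windows (ANXA1, ANXA2 and 1 start of ANXA11) against 10.7% of all windows. A GC box was in 7 of 13 against 42.6%, TGANTCA in 1 of 13 against 6.57%, and TGACGTCA in 0 of 13 against 1.65%. These are matches of letters in short windows and say nothing of which factor binds there.

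ANXA1, also called lipocortin 1, is a glucocorticoid-induced protein that restrains phospholipase A2 and acts on formyl peptide receptors. Its probe set (17085901) read 1.69 on the empty vector array, 3.54 on the wild-type array and 1.91 on the G536S array. The empty vector reading lay under the 75th percentile of all probe sets on that array, 1.73. The G536S reading lay just above the 75th percentile of its own array, 1.86. Both were thus low readings, and how far background compresses the difference between them was not determined. The wild-type array alone was high, and the other arrays lay close to each other. The difference of wild type from empty vector was 1.85 (3.60-fold), that of G536S from empty vector 0.22 (1.16-fold), and that of G536S from wild type -1.63 (3.09-fold lower). ANXA1 was among the 7 highest differences of the 11198 genes for wild type minus empty vector and among the 5 lowest for G536S minus wild type. In RNA from a whole culture, more cells with the transcript and more transcript per cell cannot be told apart.

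**Figure D1:**
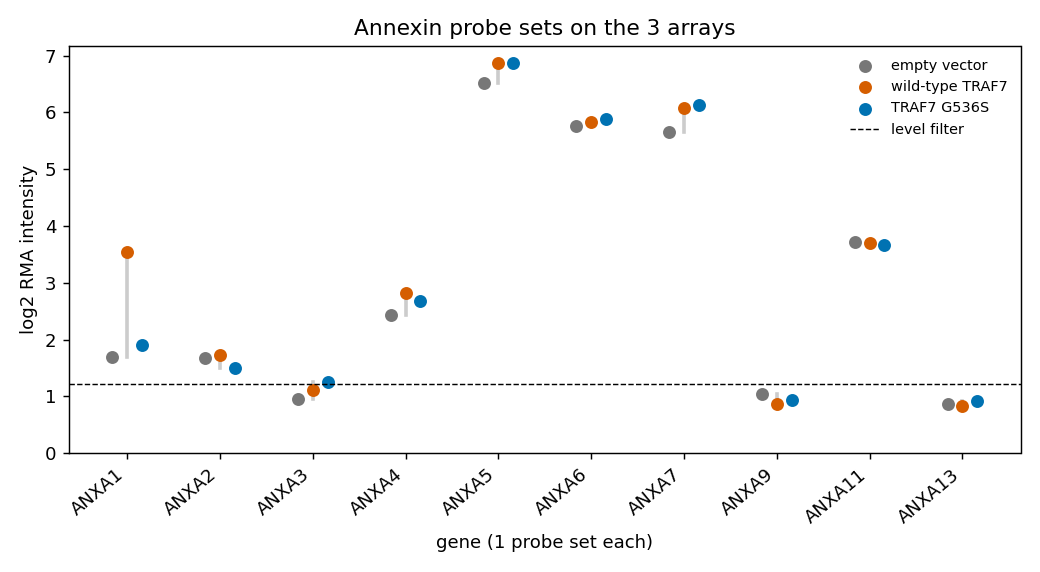
Log2 RMA intensity (vertical axis) of the 10 annexin probe sets on the empty vector, wild-type TRAF7 and TRAF7 G536S arrays, 1 array each, with the level filter of 1.21 as a dashed line; grey bars join the lowest and highest array. ANXA1 reads 3.54 on the wild-type array against 1.69 and 1.91, while the points of every other member lie within 0.46 of each other. Heights of different probe sets cannot be compared.

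Counted over the family, ANXA1 was the 1 member of 10 at least 1.5-fold higher with wild type than with the empty vector, where 5.42% of all genes passing the filter were that much higher. It was also the 1 member at least 2-fold higher, against 0.795% of genes, and 0 members were 1.5-fold lower, against 1.79%. With G536S against the empty vector, 0 of 10 were 1.5-fold higher, against 6.07% of genes, and 0 were lower, against 2.08%. With G536S against wild type, 0 were 1.5-fold higher, against 2.17%, and 1 was lower, ANXA1, against 1.81%; it was also 2-fold lower, against 0.268%. These shares are over genes passing the filter, which 3 of the members do not pass; over all 22395 genes, 2.73% and 0.911% were 1.5-fold higher and lower for wild type minus empty vector, 3.05% and 1.07% for G536S minus empty vector, and 1.11% and 0.929% for G536S minus wild type. With so few members they are read no further.

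The family as a whole lay near the middle of all genes. The median member difference was 0.11 for wild type minus empty vector, beside 0.08 for all genes passing the filter. For G536S minus empty vector it was 0.17 beside 0.10, and for G536S minus wild type 0.02 beside 0.01. Without the filter the medians of all genes were -0.0007, -0.0047 and -0.0033. Members above 0 numbered 7, 7 and 6 of 10 in these comparisons, of which the first and second share the empty vector array. Of the 7 members passing the filter 6, 5 and 3 were above 0. Among all genes passing the filter 62.6%, 63.9% and 51.4% were.

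**Figure D2:**
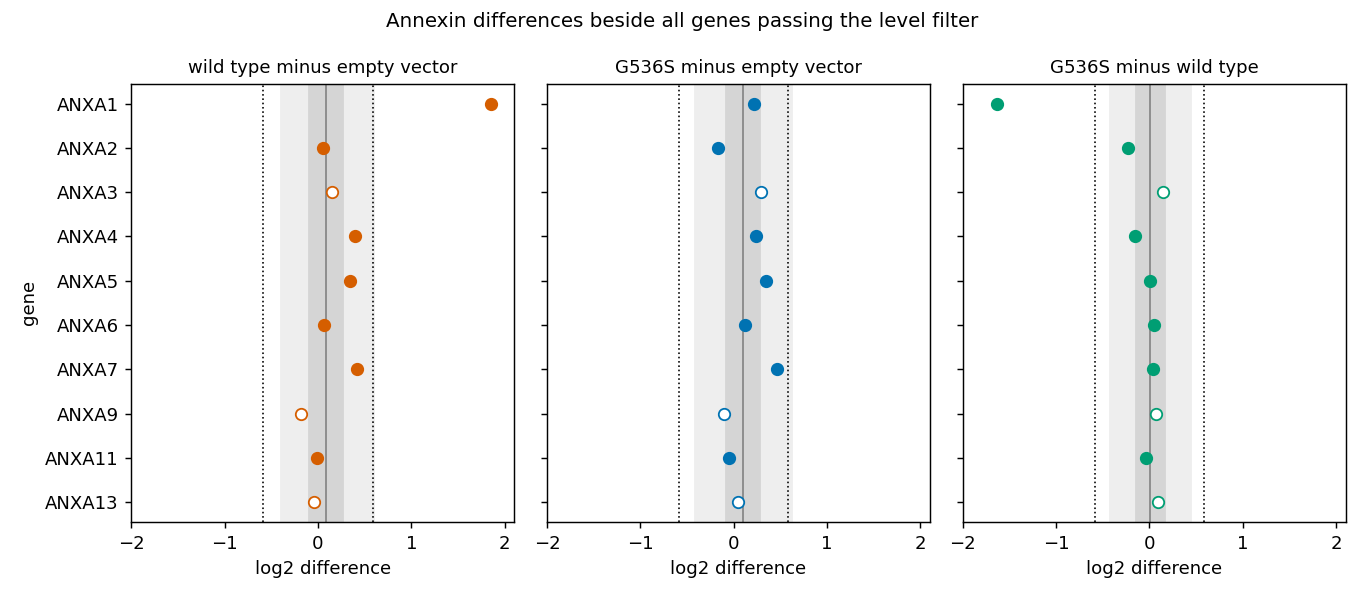
Log2 difference (horizontal axis) of each annexin in the 3 comparisons of single arrays; filled points passed the level filter and open points did not. Light bands run from the 5th to the 95th percentile of the 11198 genes and dark bands from the 25th to the 75th, the grey line is their median, and dotted lines mark 1.5-fold. ANXA1 lies at 1.85 and -1.63 in the outer panels and at 0.22 in the middle one; the other members lie inside the dotted lines.

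ANXA2 forms a complex with S100A10 that binds plasminogen and its activator at the cell surface. Its own probe set (16810065) read 1.68, 1.73 and 1.51 on the empty vector, wild-type and G536S arrays. All 3 readings were above the filter level and within 0.23 of each other. Each lay under the 75th percentile of all probe sets on its own array, 1.73, 1.85 and 1.86. These were thus low readings, and how far background compresses their differences was not determined. A second readout came from ANXA2P2, a pseudogene that is a near copy of the ANXA2 message and was not a member. Its probe set (17084363) read 6.77, 7.54 and 7.07, again with the wild-type array highest, and differed by 0.78 (1.71-fold) for wild type minus empty vector, 0.31 for G536S minus empty vector and -0.47 for G536S minus wild type. The pseudogene and the parent thus gave different values, and whether the ANXA2P2 probe set reads pseudogene or ANXA2 transcripts was not determined, so the ANXA2 level is uncertain. The other copies ANXA2P1 and ANXA2P3 did not pass the filter, and their differences from the empty vector were -0.25 and -0.10 with wild type and -0.15 and -0.38 with G536S.

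ANXA4, ANXA5 and ANXA7 read higher on both TRAF7 arrays than on the empty vector array by less than 1.5-fold. ANXA7, which aggregates secretory granules and binds sorcin, read 5.66, 6.08 and 6.12 on the empty vector, wild-type and G536S arrays, a difference of 0.42 and 0.46 from the empty vector. ANXA5, the phosphatidylserine-binding protein used to stain dying cells, read 6.52, 6.86 and 6.87, a difference of 0.34 and 0.35. ANXA4, which lines apical membranes of epithelia, read 2.43, 2.82 and 2.67, a difference of 0.39 and 0.24. For ANXA7 the TRAF7 arrays were 0.04 apart and for ANXA5 less than that, and the empty vector array was the low one.

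These smaller differences moved with the scaling of the arrays. After quantile normalization of the deposited values, which moved the median of all genes from 0.08 to -0.02 for wild type and from 0.10 to -0.03 for G536S against the empty vector, ANXA7 stood at 0.33 and 0.31, ANXA5 at 0.25 and 0.21, and ANXA4 at 0.23 and 0.09. ANXA1 stood at 1.72 and 0.09, so that its small G536S difference shrank as well while the wild-type difference did not fall below 1.5-fold. Between G536S and wild type ANXA1 ran from -1.64 to -1.62 over all settings tried.

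**Figure D3:**
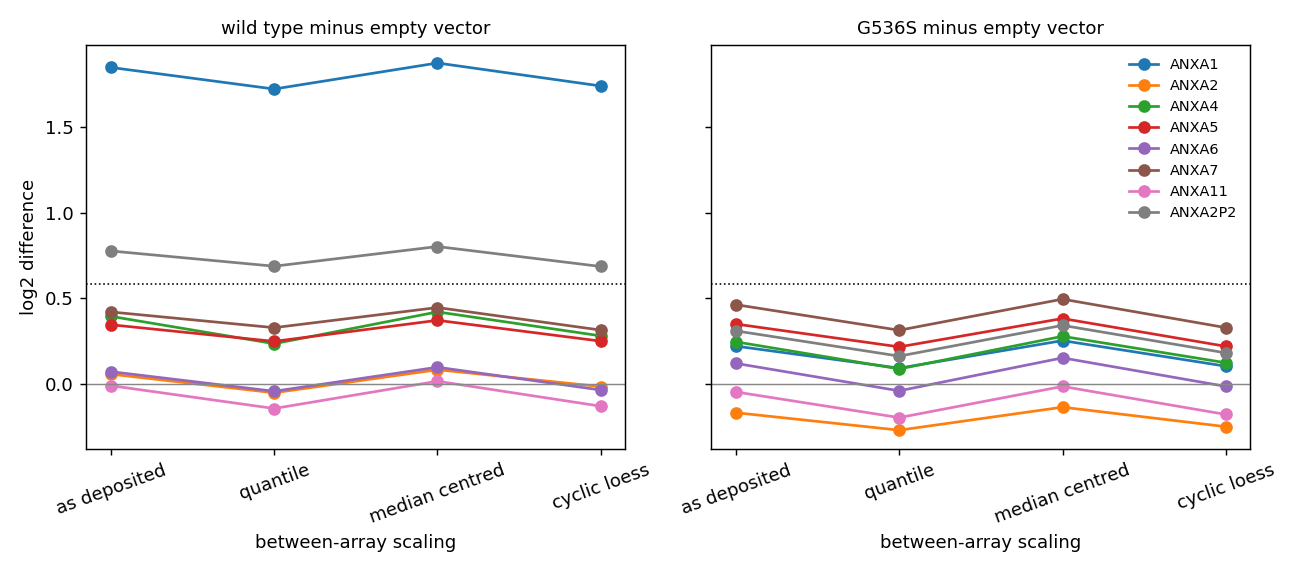
Log2 difference from the empty vector array (vertical axis) of the 7 annexins passing the filter and of ANXA2P2, with the values as deposited and after 3 rescalings; left, wild type, right, G536S; the dotted line marks 1.5-fold. Quantile normalization and cyclic loess lower every line shown, and ANXA1 and ANXA2P2 lie above the dotted line on the left under each scaling.

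ANXA6 and ANXA11 were nearly level. ANXA6, a long member with a doubled core that takes part in endosome and cholesterol traffic, read 5.77, 5.84 and 5.88, with differences from the empty vector of 0.07 and 0.12 that turned to -0.04 and -0.04 after quantile normalization. ANXA11, a partner of the calcium sensor PDCD6 that also tethers RNA granules to lysosomes, read 3.72, 3.70 and 3.67, the narrowest range of the 10 members at 0.05. ANXA2 likewise changed sign with the scaling, from 0.06 to -0.05 for wild type minus empty vector after quantile normalization, and ANXA11 went from -0.01 to 0.01 there after median centring.

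The 3 members that did not pass the filter were ANXA3, ANXA9 and ANXA13. They read between 0.83 and 1.25 on the arrays, where differences are compressed, and none of their differences was larger than 0.29. ANXA3, a member found in neutrophils, read 0.96, 1.10 and 1.25. ANXA9, a member whose core has lost typical calcium-binding residues, read 1.05, 0.87 and 0.94, and ANXA13, an annexin of intestinal and kidney epithelium, read 0.87, 0.83 and 0.92. They lie below the filter, so no level is claimed for them. The filter limits their range and also that of the 10 off-lineage markers that did not pass, so closeness of these ranges carries no information. ANXA10, outside the family as defined here, was also below the filter, at 1.10, 0.94 and 0.90. ANXA8 and its copy share their probe sets and were not analysed here.

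Partners and pathway genes came from lists that include no annexin member. Of 19 genes for annexin partners and membrane repair, 16 were measured and 11 passed the filter. S100A10, the ANXA2 partner, read 2.20 on the empty vector array, 2.79 on the wild-type array and 2.13 on the G536S array, so the wild-type array alone was high, as it was for ANXA1. Its differences were 0.59, -0.06 and -0.66 for wild type minus empty vector, G536S minus empty vector and G536S minus wild type. S100A11, the partner of ANXA1, read 1.44, 1.70 and 1.47, each under the 75th percentile of its own array (1.73, 1.85 and 1.86). Its wild-type array was above the empty vector array by 0.26. Of the 11198 genes passing the filter 2857 were at least that much higher, S100A11 included. PDCD6, the calcium sensor that binds ANXA7 and ANXA11, read 1.57, 2.18 and 1.78, a difference of 0.61 for wild type minus empty vector. S100A10 and PDCD6 were the 2 of 11 genes 1.5-fold higher with wild type, against 5.42% of all genes passing the filter, and 0 were lower, against 1.79%. Both fell below 1.5-fold after quantile normalization, at 0.44 and 0.50. Of the 11, 0 were 1.5-fold apart for G536S minus empty vector, against 6.07% of all genes higher and 2.08% lower. With 11 genes that 0 is near the share over all genes. S100A10 alone was 1.5-fold lower for G536S minus wild type, against 1.81% of all genes. The list median over the 16 measured genes was 0.12, 0.01 and -0.10 in the 3 comparisons, beside -0.0007, -0.0047 and -0.0033 for all 22395 genes without the filter. For all genes passing the filter, as 11 of the 16 did, the medians were 0.08, 0.10 and 0.01.

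PLA2G4A, the cytosolic phospholipase A2 that ANXA1 is known to restrain, lay just below the threshold with wild type. It read 1.88, 2.45 and 1.94, a difference of 0.57 for wild type and 0.06 for G536S from the empty vector; it is named here after its values were seen. The formyl peptide receptors FPR1, FPR2 and FPR3, through which secreted ANXA1 signals, did not pass the filter on these arrays and read 0.79 to 1.02.

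In the plasminogen system 5 of 6 genes were measured and 2 passed. PLAT, tissue plasminogen activator, which binds ANXA2 at the cell surface, read 3.64 on the empty vector array, 4.25 on the wild-type array and 3.44 on the G536S array. It was the 1 gene of the list that was 1.5-fold apart. It was higher by 0.61 for wild type minus empty vector (0.48 after quantile normalization), against 5.42% of all genes 1.5-fold higher, and at -0.82 for G536S minus wild type, against 1.81% of all genes 1.5-fold lower. PLAUR, the urokinase receptor, read 1.82, 2.15 and 2.05. Of the copines, another family of calcium-dependent phospholipid binders, 8 of 9 were measured and 4 passed, and 0 were 1.5-fold apart, where the shares of all genes ran from 2.17% to 6.07% higher and from 1.79% to 2.08% lower over the comparisons. CPNE8 came nearest, at 1.72, 2.28 and 1.81, a difference of 0.56 with wild type.

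**Figure D4:**
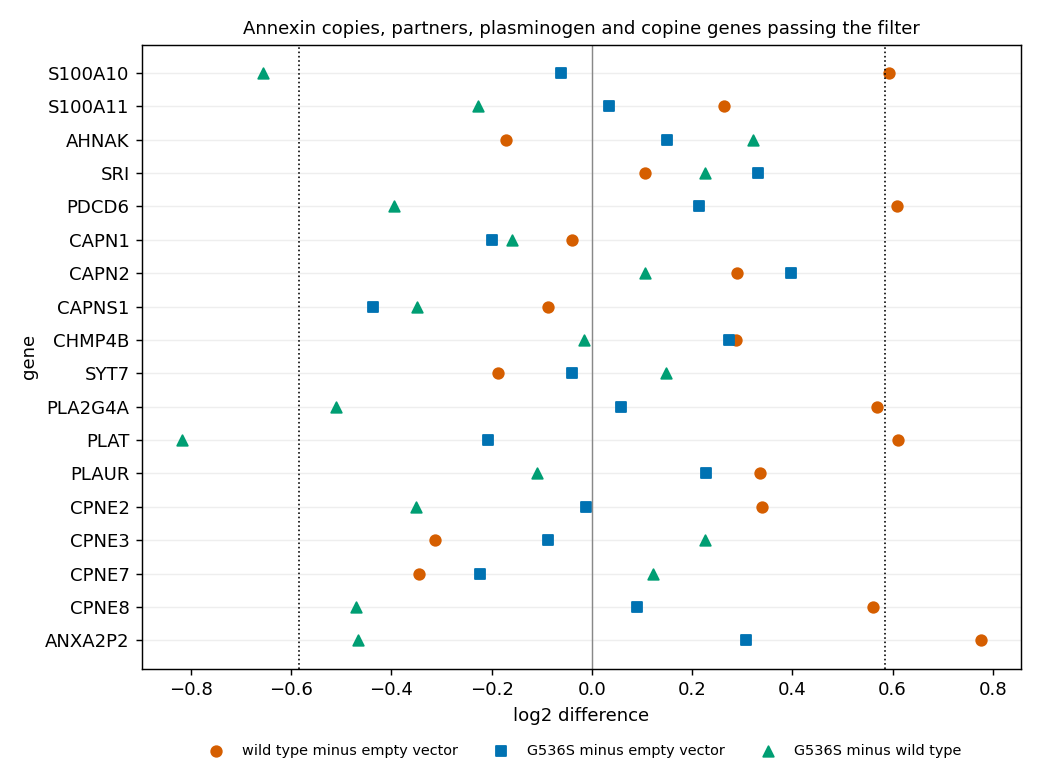
Log2 difference (horizontal axis) in the 3 comparisons of single arrays for the 17 listed partner, plasminogen and copine genes that passed the level filter, and for ANXA2P2; dotted lines mark 1.5-fold. S100A10, PDCD6, PLAT and ANXA2P2 lie beyond the right line for wild type minus empty vector, and S100A10 and PLAT beyond the left line for G536S minus wild type.

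ANXA1 is a classical glucocorticoid target, and of 8 glucocorticoid response genes 7 were measured and 5 passed. DUSP1, a phosphatase of MAP kinases, read 5.17, 6.70 and 4.33 on the empty vector, wild-type and G536S arrays, and was the 1 member of 5 that was 1.5-fold higher with wild type (1.52), against 5.42% of all genes. PER1, a clock gene, read 4.55, 4.13 and 3.84, and with DUSP1 (-0.84) made up the 2 members 1.5-fold lower with G536S (-0.71 for PER1), against 2.08% of all genes. TSC22D3 (GILZ), read 1.74, 1.81 and 2.15, and the receptor NR3C1 read 2.03, 1.85 and 1.92. The list median was 0.00 with wild type and -0.16 with G536S against the empty vector, over the 7 measured genes, beside -0.0007 and -0.0047 for all 22395 genes without the filter. For all genes passing the filter, as 5 of the 7 did, the medians were 0.08 and 0.10. For G536S minus wild type DUSP1 (-2.37) was the 1 member of 5 that was 1.5-fold apart, against 1.81% of genes that were that much lower.

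The genes with the pattern most like ANXA1 were found by Euclidean distance between pairs of differences from the empty vector on the log2 scale, which rests on 3 arrays. The nearest 5 were ZNF492, a zinc finger gene (distance 0.16), JUN, an AP-1 subunit (0.41), TNFRSF12A, the TWEAK receptor (0.52), the non-coding RNA gene MIR924HG (0.55) and SAP30L, of a histone deacetylase complex (0.59). ZNF492 read 1.87, 3.74 and 2.26 on the empty vector, wild-type and G536S arrays. JUN read 4.66, 6.91 and 4.98. For each of the 5 the wild-type array was the highest and the empty vector array the lowest. The 5 were picked for closeness to ANXA1, so the high wild-type array follows from that choice.

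The genes next to ANXA1 are given as values. Of the 3 measured protein-coding neighbours on each side, 0 of 6 were 1.5-fold apart in any comparison, and their differences ran from -0.12 to 0.47. With 6 genes, 3 of them below the filter, and 2.17% to 6.07% of all genes 1.5-fold higher, a count of 0 is near the share over all genes. ALDH1A1, the nearest on one side, read 0.99, 0.98 and 0.89, and RORB, the nearest on the other, read 2.19, 2.07 and 2.24. The members themselves are spread over 8 chromosomes, with ANXA3 and ANXA5 sharing one and ANXA7 and ANXA11 another. ANXA7 moved by 0.42 with wild type while ANXA11 stood at -0.01.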

How the data were processed

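The deposited table holds log2 intensities per probe set that the authors made with RMA, per the submitters' processing notes; the sources used here name neither the RMA version nor a genome build. The log base was inferred as 2 from the highest value of 12.57. Of 53617 probe sets, 25713 are in the platform annotation, 23871 with 1 gene, 1842 with several and 27904 unnamed here; symbols were updated through Entrez IDs in a RefSeq GRCh38.p14 table, which held 22572 of them. A gene took its highest-mean probe set. The genes named are the members, TRAF7, listed genes 1.5-fold apart, S100A10, S100A11 and the 5 nearest patterns; others are neighbours, markers or were named after their values were seen. The members and lists were chosen with earlier results of these data known. Differences of single arrays have no test, and the number of arrays limits the precision. Alternatives were the mean of probe sets, quantile normalization, median centring, cyclic loess, a floor at the 25th percentile (0.86), other filters (none, or the 75th percentile, 2.87) and 2-fold. Calculations used Python 3.11.15, numpy 2.4.6, pandas 2.3.3, R 4.3.3, limma 3.58.1 and matplotlib 3.10.9, and the counting was tested on simulated data.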

Additional observations from a re-analysis of the deposited data

Results flagged for a closer look

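DUSP1, a phosphatase of MAP kinases in the glucocorticoid list, stood out because its differences from the single empty vector array had opposite signs, 1.52 on the wild-type array and -0.84 on the G536S array. With 1 array per group the difference was not tested. No annexin member could do so by 1.5-fold, since 0 of 10 were 1.5-fold apart for G536S minus empty vector. There 6.07% of all genes passing the filter were 1.5-fold higher and 2.08% lower. The share of all genes with opposite signs was not counted.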

How the results depend on the processing

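Of 150 member differences recomputed (10 members, 3 comparisons, 5 settings), 127 moved by less than 0.1 and 23 by more. Of these 23, 12 moved under quantile normalization and 11 under cyclic loess. The mean of probe sets could move none, because each member has 1 probe set. Median centring shifts all genes of an array alike, and the floor reached only ANXA13 among the members. The 127 therefore say little about stability. Of the differences that were 1.5-fold apart, 0 changed sign. The counts of annexins 1.5-fold apart were 1, 0 and 1 under every setting tried, a 2-fold threshold included, and the level filter does not enter them. Median member differences moved by less than 0.1 throughout; that of G536S minus wild type went from 0.02 to -0.02 after quantile normalization and -0.01 after cyclic loess. Partner genes 1.5-fold apart in any comparison numbered 2, and 3 after median centring, 1 after quantile normalization, 1 after cyclic loess and 0 under the 75th percentile filter, which S100A10 and PDCD6 do not pass; copines went from 0 to 1 after median centring. Quantile normalization changed the share of all genes 1.5-fold higher from 5.42% to 3.13% for wild type and from 6.07% to 3.15% for G536S against the empty vector, and of those lower from 1.79% to 3.42% and from 2.08% to 4.45%. No paired analysis was possible because each group has 1 array. Probe sets near background limit what can be said of ANXA3, ANXA9 and ANXA13.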
